A study of Mus musculus with 41 samples.

Results

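The 10 genes of the circadian clock described here were followed in the lung and liver of mice that had inhaled nanosized titanium dioxide (nanoTiO2) or filtered air. They were Per1, Per2, Per3, Cry1, Arntl (also known as Bmal1), Clock, Nr1d1, Nr1d2, Dbp and Tef, chosen by their gene name on the array. The 10 genes were read by 20 probes of the 41174 probes and 27962 gene names on each of 28 arrays. The study asked how the transcriptome of the lung and liver responds to inhaled nanoTiO2. All mice were female C57BL/6 (C57BL/6BomTac in the study's methods) that had been time-mated but had not conceived, with their age given as equivalent to GD4 (the miRNA samples of the same series carry 11 to 13 weeks). Exposed mice breathed 40 mg/m3 nanoTiO2 for 1 h per day on 11 days and control mice breathed filtered air in the same way, and both were killed 5 days after the last exposure. RNA came from a part of the lung of 7 exposed and 6 control mice and from a part of the liver of 7 exposed and 8 control mice, 1 array per mouse and tissue. The mice lived under a light-dark cycle, and the hour of killing is not given in the sources used here.

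The circadian clock is a feedback loop of transcription that runs in nearly every cell. CLOCK and BMAL1 (the product of Arntl) bind E-boxes and switch on the Per and Cry genes, whose proteins return to the nucleus and repress CLOCK and BMAL1. The same pair drives Nr1d1 and Nr1d2 (REV-ERB alpha and beta), which repress Arntl through ROR elements, and Dbp, a factor that with its relative Tef acts on D-boxes of clock output genes. In tissues sampled around the clock, Dbp, Per and Nr1d transcripts peak at a phase at which Arntl is near its trough. The liver clock is known for its rhythm in metabolism and the lung clock for its rhythm in airway epithelium.

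Each array carried the sample in Cy5 against a universal mouse reference RNA from 11 cell lines in Cy3, with no dye swap, so a level is given as a log2 ratio to that reference. A level of 1 is a ratio of 2 to 1 for that probe, and levels are not comparable between genes. The arrays lay on 4 slides per tissue, and 12 mice (6 exposed and 6 control) had both tissues measured, each on the same-numbered slide of the lung and of the liver series. Between 61.3% and 67.5% of spots were well above background on lung arrays and between 55.1% and 70.5% on liver arrays. The 6 markers of lung epithelium and endothelium had mean levels of 4.39 to 4.82 in the lung and 0.48 to 0.74 in the liver, and the 4 measured liver markers 6.19 to 6.69 in the liver and 0.12 to 1.59 in the lung. In bulk tissue, fewer cells of a type and less RNA per cell cannot be told apart.

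Of the 10 genes, 9 matched promoters in RefSeq sequence (build GRCm38.p6), with 14 windows that run from 250 bases before to 50 bases after a start site. The elements of the loop were searched on both strands, the E-box CACGTG, the D-box TTATGTAA or TTACGTAA, the ROR element TAGGTCA or TGGGTCA, and the cAMP response element TGACGTCA. The stretches that hold a match are shown, with the match in capitals, because these letters are the known motifs of the factors described above.
Per1 (chr11:69098743-69098828, plus strand): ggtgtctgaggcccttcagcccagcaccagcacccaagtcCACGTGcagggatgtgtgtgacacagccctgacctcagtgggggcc
Per3 (chr4:151044776-151044910, minus strand): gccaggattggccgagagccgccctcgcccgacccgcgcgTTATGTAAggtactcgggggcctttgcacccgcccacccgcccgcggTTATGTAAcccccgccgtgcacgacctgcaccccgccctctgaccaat
Cry1 (chr10:85185069-85185154, minus strand): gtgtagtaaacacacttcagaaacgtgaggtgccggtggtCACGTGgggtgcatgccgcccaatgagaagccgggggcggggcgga
Arntl (chr7:113207501-113207560, plus strand): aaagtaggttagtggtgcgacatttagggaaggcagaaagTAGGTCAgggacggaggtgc
Tef, first start site (chr15:81802506-81802591, plus strand): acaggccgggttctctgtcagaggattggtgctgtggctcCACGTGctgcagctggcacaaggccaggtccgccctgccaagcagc
Tef, second start site (chr15:81811236-81811321, plus strand): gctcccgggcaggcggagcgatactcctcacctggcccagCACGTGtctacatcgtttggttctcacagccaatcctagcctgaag
An E-box stood before the first of 2 starts of Per1, the start of Cry1 and of both starts of Tef, a pair of D-boxes before the start of Per3, and a ROR element just after the second start of Arntl. None of these elements was found in these letters in the windows of Clock, Nr1d1, Nr1d2 and Dbp. Of all 32851 promoter windows, 7.15% held the E-box, 1.06% the D-box, 6.45% the ROR element and 1.79% the cAMP response element, so the E-box and the ROR element are common letters in such windows. A match describes the sequence and is not a binding site.

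The clock genes differed widely between mice of the same group. Dbp, the output factor, spanned the widest range of the 10. In the lung its level was -1.43 at the lowest, 1.14 at the median and 2.28 at the highest in exposed mice, and -0.39, 0.72 and 2.06 in control mice. In the liver it was -2.14, 1.55 and 2.23 in exposed mice and -1.36, 0.58 and 2.26 in control mice. The lowest liver level was that of exposed mouse 1 and lay 20.7-fold under the highest liver of its group. The ranges of exposed and control mice overlapped in both tissues, with mouse 1 under every control mouse in each.

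**Figure D1:**
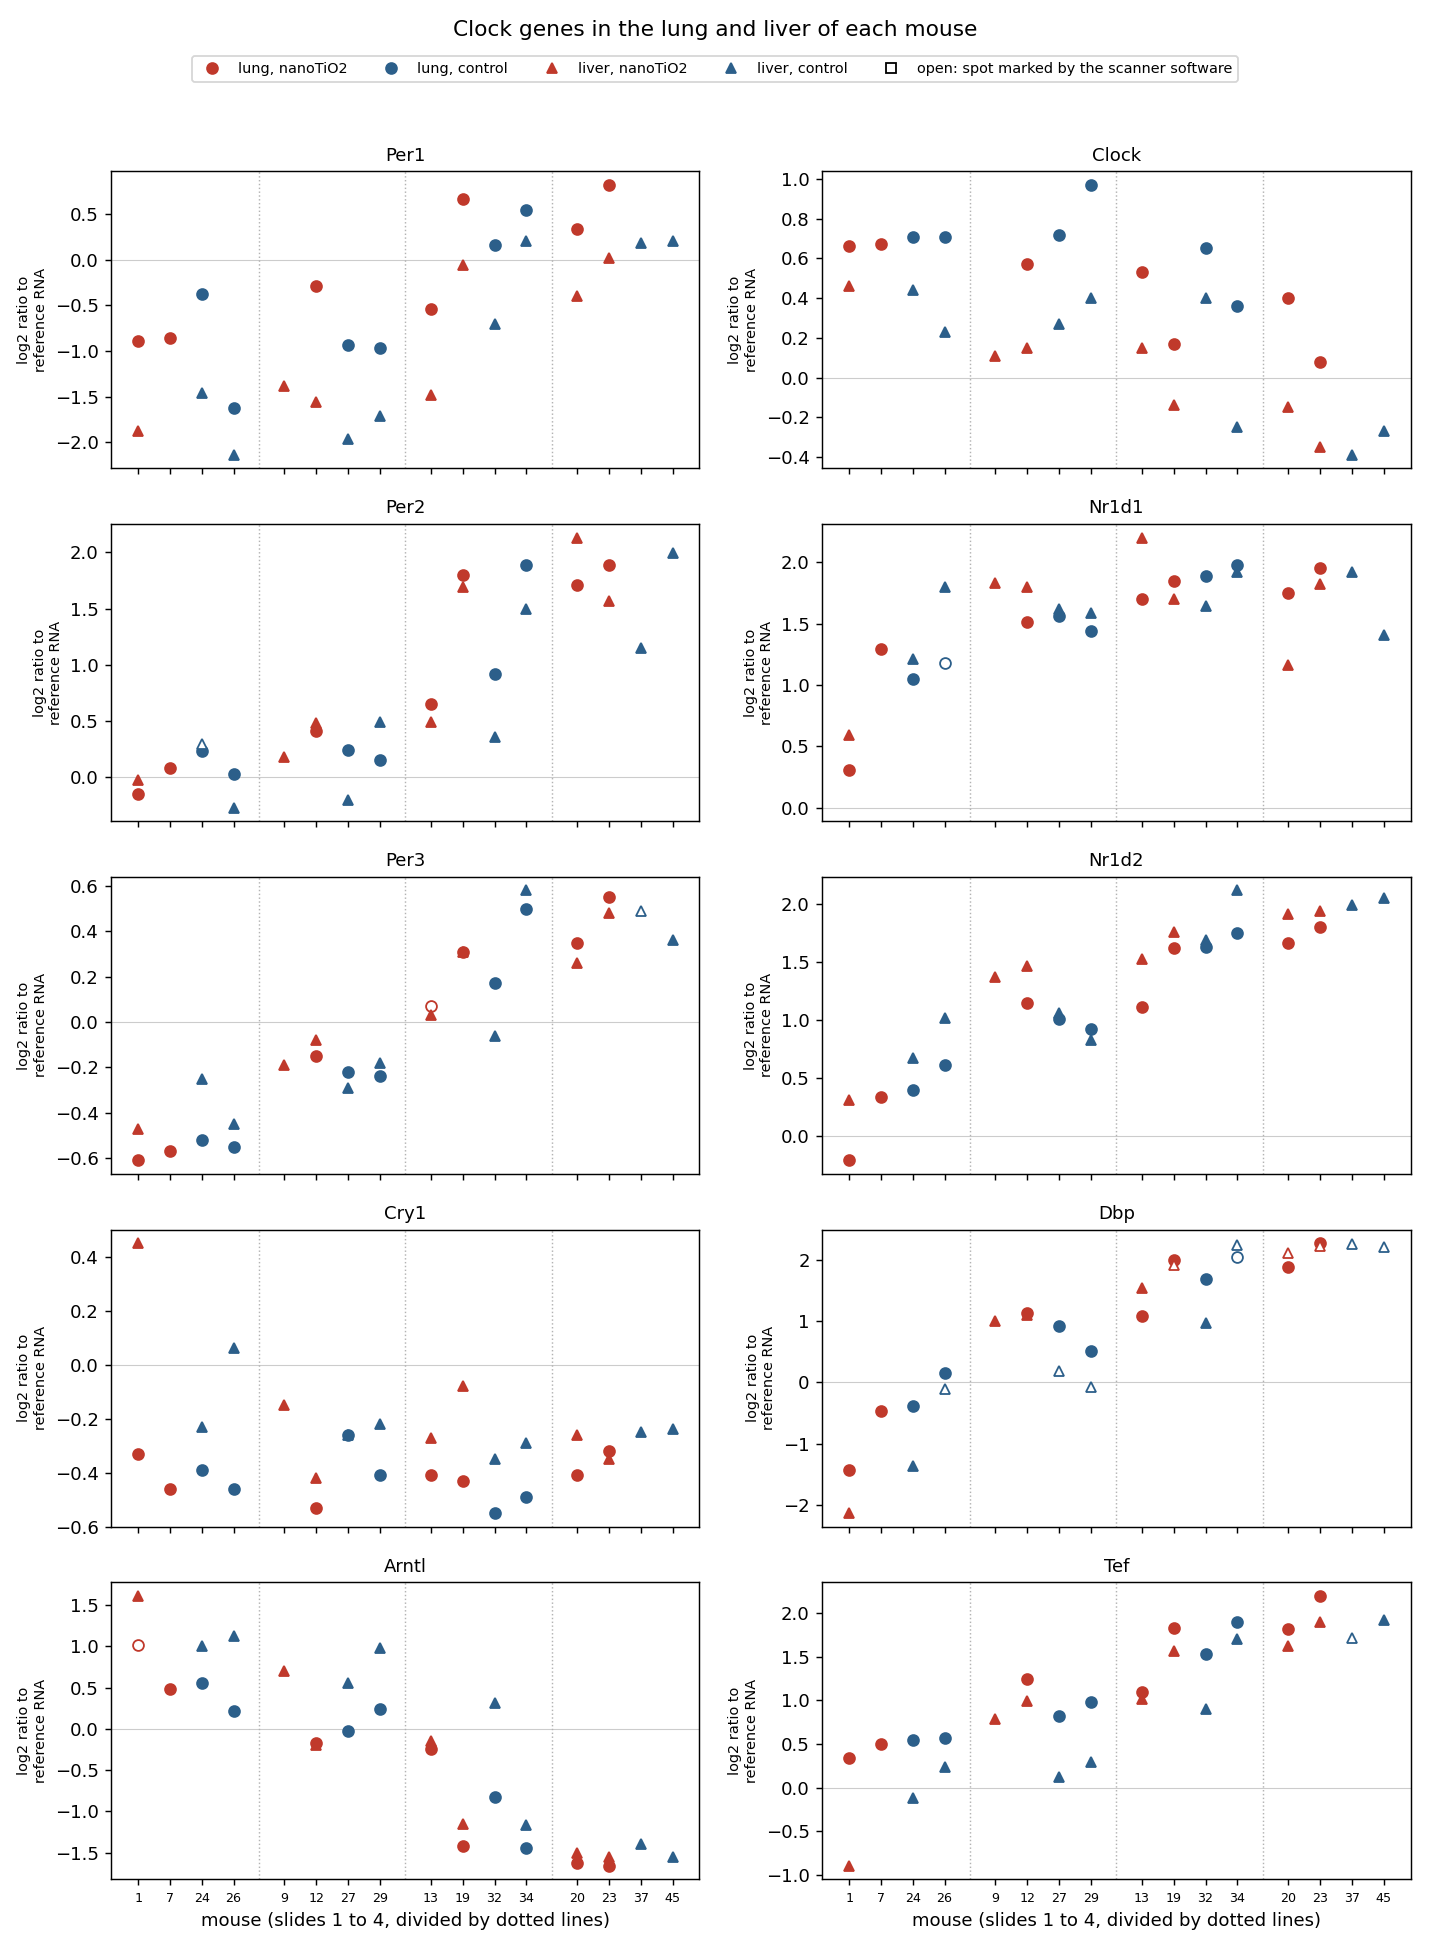
Log2 ratio to the reference RNA (y axis) of each clock gene in every mouse (x axis, in slide order), lung as circles and liver as triangles, nanoTiO2-exposed in red and control in blue, with open symbols for spots the scanner software marked. Dbp goes from -2.14 in the liver of mouse 1 to 2.28 in the lung of mouse 23 while Arntl goes from 1.61 in the liver of mouse 1 to -1.66 in the lung of mouse 23, and Cry1 of the lung stays between -0.55 and -0.26.

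Arntl, the activator that the Nr1d genes repress, had the opposite order. Its lung level was -1.66 at the lowest, -0.24 at the median and 1.01 at the highest in exposed mice and -1.44, 0.09 and 0.55 in control mice. Its liver level was -1.55, -0.2 and 1.61 in exposed mice and -1.55, 0.44 and 1.13 in control mice. The lungs of exposed mice 19, 20 and 23 and control mouse 34 were low in Arntl and high in Dbp, whereas exposed mouse 1 was the highest in Arntl and the lowest in Dbp in both tissues. Clock, the partner of Arntl, followed it on a smaller scale, with lung levels of 0.08, 0.53 and 0.67 in exposed and 0.36, 0.71 and 0.97 in control mice, and liver levels of -0.35, 0.11 and 0.46 and of -0.39, 0.25 and 0.44. Both groups overlapped for Clock, and 2 exposed lungs lay under every control lung.

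Among the repressors of the loop, Per1 had lung levels of -0.89, -0.29 and 0.82 in exposed and -1.63, -0.66 and 0.55 in control mice. Its liver levels were -1.88, -1.38 and 0.02 in exposed and -2.14, -1.08 and 0.21 in control mice. The lungs of mice 19, 20, 23 and 34 were the 4 highest for Per1 and the livers of mice 23, 34, 37 and 45 the only ones above 0. Per2 fell into separate sets, since its 13 lung levels left a gap between 0.92 and 1.71 with mice 19, 20, 23 and 34 above it, 3 of them exposed and 1 control. The lowest, median and highest Per2 levels were -0.15, 0.65 and 1.89 in exposed and 0.03, 0.23 and 1.89 in control lungs, and -0.02, 0.49 and 2.13 in exposed and -0.27, 0.42 and 1.99 in control livers. Per3 spanned less, from -0.61 to 0.55 over the lungs and from -0.47 to 0.58 over the livers, with mouse 1 the lowest in both. Cry1 had a narrower range still, since its lung levels lay between -0.55 and -0.26, and its liver levels between -0.42 and 0.45 with mouse 1 the highest. Cry1 was also the dimmest of the genes, well above background in 7 of 13 lungs and 11 of 15 livers.

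Of the REV-ERB genes, Nr1d2 had lung levels of -0.21, 1.15 and 1.8 in exposed and 0.4, 0.97 and 1.75 in control mice, and liver levels of 0.31, 1.53 and 1.94 and of 0.67, 1.38 and 2.12. Nr1d1 had lung levels of 0.31, 1.7 and 1.95 in exposed and 1.05, 1.5 and 1.98 in control mice, and liver levels of 0.59, 1.8 and 2.2 and of 1.21, 1.63 and 1.92. Mouse 1 had the lowest level of both genes in both tissues. Tef, the relative of Dbp, ran from 0.34 to 2.2 over exposed and from 0.54 to 1.9 over control lungs, and from -0.9 to 1.9 over exposed and from -0.12 to 1.92 over control livers. Mouse 23 was the highest of the lungs and mouse 45 the highest of the livers.

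Within a group, the SD between mice exceeded 0.5 for 6 of the 10 genes in the lung, where 0.886% of all probes did, and for 6 of 10 in the liver, where 1.15% did. These were Per1, Per2, Arntl, Nr1d2, Dbp and Tef in both tissues. Dbp had an SD of 1.2 in the lung and 1.43 in the liver, and 0.0923% and 0.0316% of all probes had a larger one. Arntl followed with 0.94 and 1.17. Cry1 had 0.08 in the lung, where 64.4% of probes varied more. The median over the 10 genes was 0.65 in the lung and 0.7 in the liver, against 0.1 and 0.12 over all probes.

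No clock gene passed the test between exposed and control mice. In the lung 0 of 10 were called by limma at an adjusted p under 0.05, where 83 of 41155 probes (0.202%) were called, and in the liver 0 of 10, where 0% of 41143 probes were. The median difference (log2, exposed minus control) of the 10 genes was 0.07 in the lung and 0.06 in the liver, against 0 over all probes in each. With an unadjusted p under 0.05 there was 1 gene in the lung (Clock) and 0 in the liver, and over all probes 2936 and 1041.

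By role, the activators had lower means in exposed than in control lungs, neither past the test. Arntl was at -0.56 (SE 0.41, 95% interval -1.45 to 0.34, limma adjusted p = 0.813), or -0.3 once the marked spot of mouse 1 was put back. With slide as a fixed block Arntl was at 0.08, so its direction depended on the fit. Clock was at -0.24 (SE 0.11, interval -0.48 to -0.01, limma adjusted p = 0.693). All 7 exposed lungs lay under the control mean of Clock for the reported probe (exact permutation test, two-sided, p = 0.0699, the smallest of the 20 such tests of a gene in a tissue). Other probes of Clock differed by -0.18, -0.16 and -0.05, none called. Per1 differed by 0.42 (SE 0.36, interval -0.35 to 1.2, limma adjusted p = 0.839) and Per2 by 0.33 (SE 0.39), Per3 by 0.12 and Cry1 by 0.01. Nr1d1 differed by -0.11, Nr1d2 by 0.02, Tef by 0.24 and Dbp by 0.35 (interval -0.92 to 1.62), or 0.1 with its marked spot put back. The intervals of Dbp, Arntl, Per1 and Per2 leave room for a difference of up to 1.62, -1.45, 1.2 and 1.16, whereas that of Cry1 runs from -0.09 to 0.12.

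In the liver the differences were -0.04 for Per1 (SE 0.42), 0.22 for Per2, 0.09 for Per3, 0.07 for Cry1, -0.3 for Arntl (SE 0.54), -0.07 for Clock, -0.06 for Nr1d1, 0.04 for Nr1d2 and 0.28 for Tef, with a limma adjusted p of 1 for each. Dbp differed by 0.57 (SE 1.06, interval -1.88 to 3.03), but there the scanner software had marked 9 of the 15 spots as outliers and the fit left them out. With these spots put back the Dbp difference in the liver was 0.32. Exposed and control levels overlapped for all 10 genes in each tissue, where 0.386% of all probes in the lung and 0.0219% in the liver had groups that did not overlap. The difference between the lung effect and the liver effect was called for 0 of 10 genes (0.141% of all probes), and it ranged from -0.25 for Arntl to 0.46 for Per1. The direction of Arntl was not settled, since its difference was 0 with the marked spots put back and 0.57 with the mouse as a block.

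**Figure D2:**
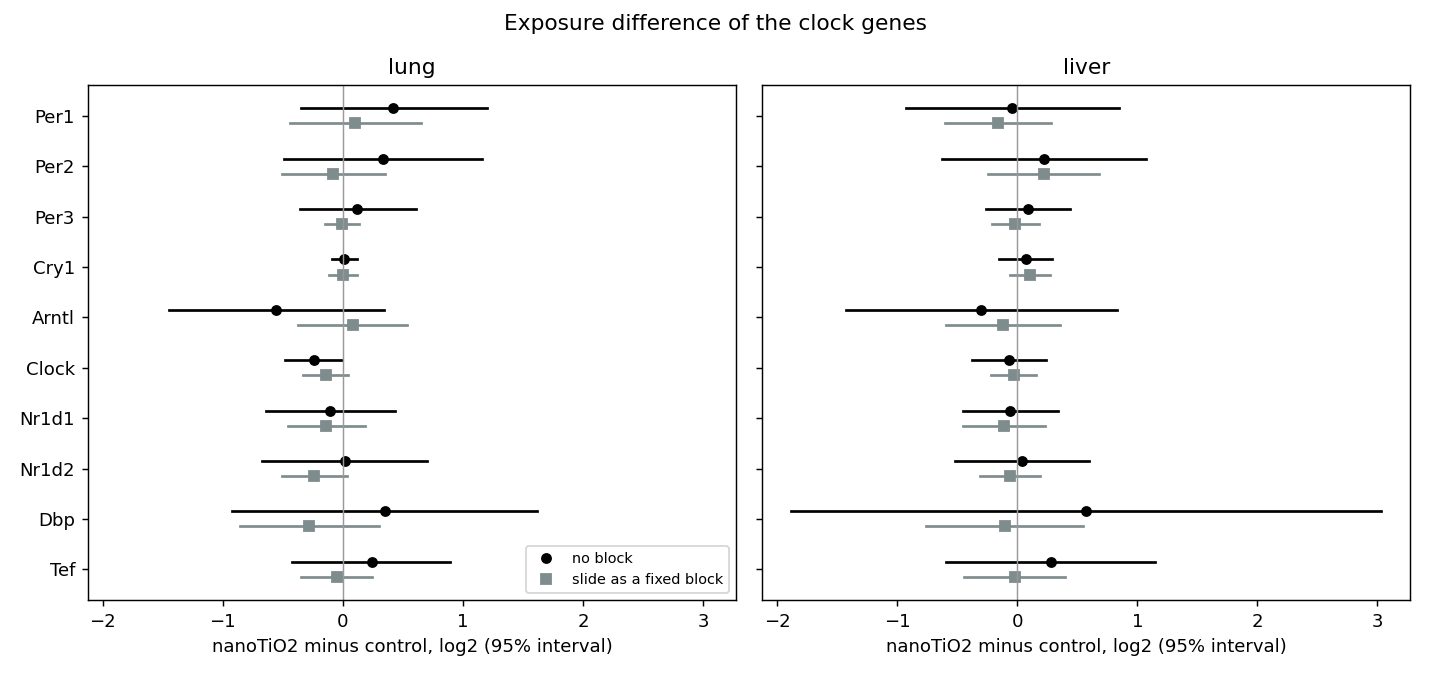
Exposed minus control difference (x axis, log2) of each clock gene in the lung and the liver, as the limma estimate with its 95% interval, without a block (black circles) and with slide as a fixed block (grey squares). The interval crosses 0 for every gene except Clock of the lung without the block (-0.48 to -0.01), and the slide block turns Arntl of the lung from -0.56 to 0.08.

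The mean levels differed between slides, which are the hybridization blocks of the labels. In both tissues, slides 1 to 4 held the mice of each group in the order of their numbers. A difference between slides therefore cannot be told apart from one along the mouse numbers, and its source was not tested. Given exposure, the slide term of limma was called for 7 of 10 genes in the lung (4.62% of all probes) and 8 of 10 in the liver (17.1%). With marked spots kept in the background model it was called for 0 of 10 in the lung and 9 of 10 in the liver. The share of all probes called under that setting was not counted. Dbp averaged -0.53, 0.86, 1.71 and 2.09 on slides 1 to 4 of the lung and -1.21, 0.56, 1.68 and 2.2 on those of the liver. Arntl averaged 0.56, 0.01, -0.98 and -1.65 in the lung and 1.25, 0.51, -0.54 and -1.5 in the liver. The adjusted p of the slide term was 0.00788 for Dbp and 0.00924 for Arntl in the lung and 0.000154 and 0.000125 in the liver. Cry1 was not called in either tissue, nor were Per1 and Clock in the lung and Nr1d1 in the liver. Slide 4 of the lung held exposed mice 20 and 23 and no control mouse.

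Mice of 1 group on 1 slide still differed. On slide 3, exposed mice 13 and 19 had Per2 levels of 0.65 and 1.8 in the lung and 0.49 and 1.69 in the liver. Control mice 32 and 34 of that slide had 0.92 and 1.89 in the lung and 0.36 and 1.5 in the liver. The higher mouse of each slide 3 pair was the same in both tissues, and Arntl had the reverse order, with -0.24 and -1.42 in the lungs of mice 13 and 19 and -0.15 and -1.15 in their livers. On other slides the Per2 order held for control mice 24 and 26. It turned for control mice 27 and 29 (lung 0.24 and 0.15, liver -0.2 and 0.49) and exposed mice 20 and 23 (lung 1.71 and 1.89, liver 2.13 and 1.57). The Arntl order turned for mice 24 and 26 (lung 0.55 and 0.21, liver 1 and 1.13) and held for the others. Since a mouse lay on the same-numbered slide in both tissues, slide and mouse cannot be fully told apart.

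With slide as a fixed block, 0 of 10 genes were called in either tissue (0.219% of all probes in the lung and 0% in the liver), and 7 of 10 differences changed sign in the lung and 4 of 10 in the liver. In the lung these were Arntl (0.08, SE 0.21), Per2 (-0.08, SE 0.2), Dbp (-0.28, SE 0.26), Tef (-0.05, SE 0.14), Per3 (-0.01), Cry1 (0 after rounding) and Nr1d2. Nr1d2 went from 0.02 to -0.24 (SE 0.13, limma adjusted p = 0.64), the lowest p of the 10 under the block. Clock kept its sign at -0.14 (SE 0.09, limma adjusted p = 0.694). Within slides 1, 2 and 3 of the lung, exposed minus control was -0.05, -0.27 and -0.15 for Clock. For Dbp it was -0.83, 0.43 and -0.34, and for Arntl 0.37, -0.28 and 0.31, so neither kept 1 sign.

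For most of the 10 clock genes, mice with a high level in the lung had a high level in the liver. Over the 12 mice with both tissues, centred on the exposure group, r between lung and liver exceeded 0.5 for 9 of the 10 genes, where 9.75% of all probes did, and 0.9 for 7 of 10, where 0.0826% did. The count over 0.9 was 2 of 9 with marked spots kept in the background model, where Per1 had r = 0.69, Arntl 0.75 and Per3 0.66, and 4 of 9 with median centering, both without a value for Dbp. Dbp had r = 0.98 (rho 0.94), and 0% of the 41174 probes had a higher r. That r includes the liver spots of Dbp that the scanner software had marked, without which only 5 mice had both tissues. The r was 0.97 for Arntl (rho 0.91), 0.96 for Per1 (rho 0.93) and Nr1d2 (rho 0.97), and 0.95 for Per3 (rho 0.92) and Tef (rho 0.91). The median over the 10 genes was 0.95 against 0.05 over all probes.

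Shuffling the mice within their groups gave a permutation p (two-sided, 12 mice) of 2e-05 for r of Dbp, Per3 and Tef, 3e-05 for Per1, 5e-05 for Arntl and 8e-05 for Nr1d2. For the rho of these genes it was between 3e-05 and 0.00026. Here and in the tests that follow, mice were shuffled without regard to slide. Such a p does not separate the mouse from the same-numbered slide of both its tissues. Run over all 41174 probes as an exact permutation test, 0 probes (0%) passed an adjusted p of 0.05, and the adjusted p was 0.159 for Dbp, Per1 and Per3, 0.169 for Arntl, 0.177 for Tef and 0.184 for Nr1d2. A single probe at the smallest p that 518400 arrangements allow (1.93e-06) would have an adjusted p of 0.0794. Without the 2 mice farthest from the median in the lung, r was 0.91 for Dbp, 0.95 for Arntl, 0.97 for Per1, 0.92 for Nr1d2, 0.89 for Per3 and 0.96 for Tef. Within the 6 exposed mice alone Dbp had r = 0.99 (exact permutation p = 0.00694) and within the 6 control mice 0.96 (exact permutation p = 0.00139). With slide as a further term in the centering, r was 0.85 for Dbp, 0.86 for Arntl and Nr1d2, 0.9 for Per1, 0.92 for Per3 and 0.76 for Tef.

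The other 4 genes were less firm. The Per2 levels fell into separate sets, so r is given among the 8 mice below the gap, where it was 0.59 (permutation p = 0.177), while the counts above hold Per2 by its r over all 12 mice. There Dbp had r = 0.97, Nr1d2 0.96, Per1 0.93 and Per3, Arntl and Tef 0.89 each, with a permutation p from 0.00442 to 0.0145. Clock had r = 0.87 over the 12 mice (rho 0.71, permutation p = 0.00073 for r and 0.016 for rho), but 0.37 among the 8 (permutation p = 0.34) and 0.11 over the 12 with median centering. Nr1d1 had r = 0.73 (rho 0.6, permutation p = 0.0259 for r and 0.0442 for rho), which rests on mice 1 and 24, since r was 0.03 without both and 0.31 without mouse 1. Among the 8 mice Nr1d1 had r = 0.87 (permutation p = 0.0551). Cry1 had r = 0.29 (rho 0.29, permutation p = 0.339 for r and 0.37 for rho), and over all probes the adjusted exact p of these 4 genes lay between 0.341 and 0.881.

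**Figure D3:**
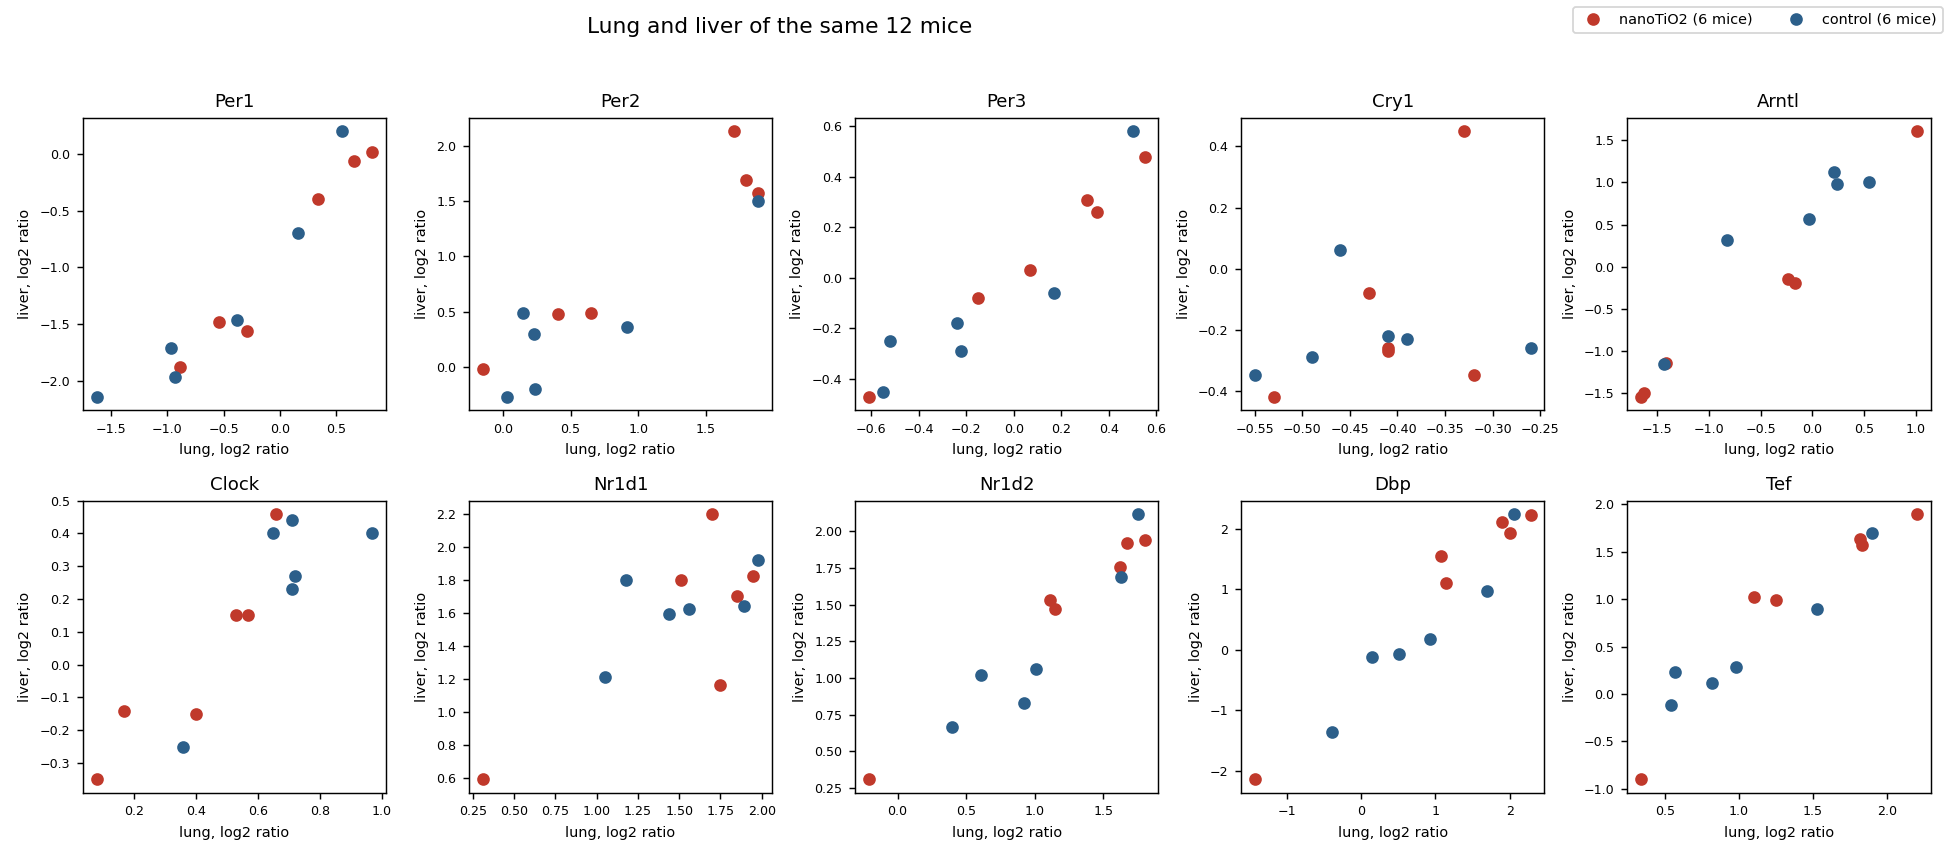
Level in the liver (y axis) against level in the lung (x axis), both as log2 ratio to the reference RNA, for the 12 mice with both tissues, exposed in red and control in blue, 1 panel per clock gene. Dbp, Arntl, Per1, Nr1d2, Per3 and Tef lie along a line that runs through both groups (r from 0.95 to 0.98), Per2 forms separate sets, and Cry1 shows no line (r = 0.29).

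Over the 10 genes within a mouse, the deviations of lung and liver from their group means had r between 0.72 and 0.98 in the 12 mice, whereas over all probes r lay between -0.04 and 0.2. These values are across genes, which are not independent replicates. Of the 34 probes with r over 0.9, 9 read 7 of the clock genes (3 of them Tef), and the other 25 read 24 further gene names.

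**Figure D4:**
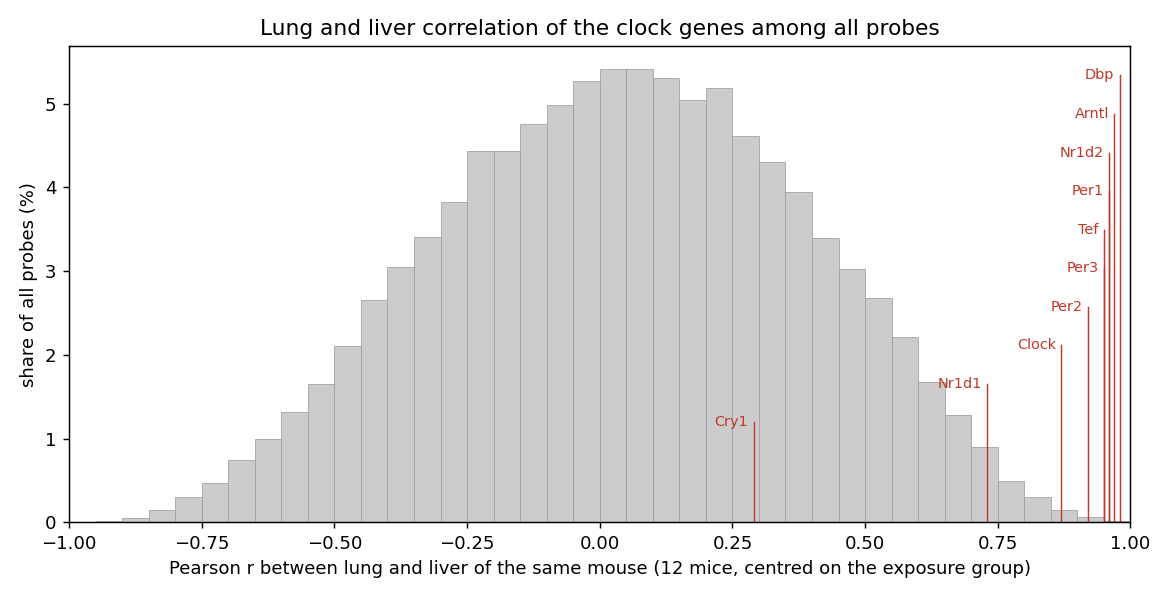
Share of all 41174 probes (y axis, %) by Pearson r between lung and liver of the same 12 mice (x axis), with the clock genes as red lines. All probes centre on a median of 0.05, 9 of the 10 clock genes lie above 0.5, and Cry1 lies at 0.29.

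Within each tissue the clock genes moved in 2 opposed sets. Of the 45 pairs of genes, 36 were called in the lung (permutation test over 13 arrays centred on the group, adjusted over the pairs), and these were all 36 pairs without Cry1. The share of called pairs among other probes was not computed, so the counts of pairs in either tissue stand without a background. The 22 positive pairs joined Arntl to Clock, and Per1, Per2, Per3, Nr1d1, Nr1d2, Dbp and Tef to each other, and the 14 negative pairs set the first set against the second. Nr1d2 and Dbp had the closest r, 0.98 in the liver and 1 after rounding in the lung. Arntl and Dbp had r = -0.95 (rho -0.96) in the lung and -0.91 (rho -0.93) in the liver, each with the smallest permutation p (0.00001), and Arntl and Clock 0.85 (rho 0.84) and 0.93 (rho 0.85).

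In the liver 34 of the 45 pairs were called over 15 arrays, and 29 of the 36 without Cry1. The 7 that were not were all pairs of Nr1d1, whose r with Per2 was 0.05 in the liver against 0.8 in the lung, a difference that was not tested. Cry1 had called pairs in the liver, such as r = -0.67 with Dbp (rho -0.48, permutation p = 0.0304 for r and 0.0513 for rho, adjusted p = 0.0409 and 0.0722), which fell to -0.1 without the 2 arrays farthest from the median of Cry1. With slide as a further term 23 pairs were called in the lung and 19 in the liver, and the sign stayed the same for 45 of 45 and 41 of 45 pairs. The shuffling took no account of the slide term that had been removed, so these 2 counts of calls may be too high.

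**Figure D5:**
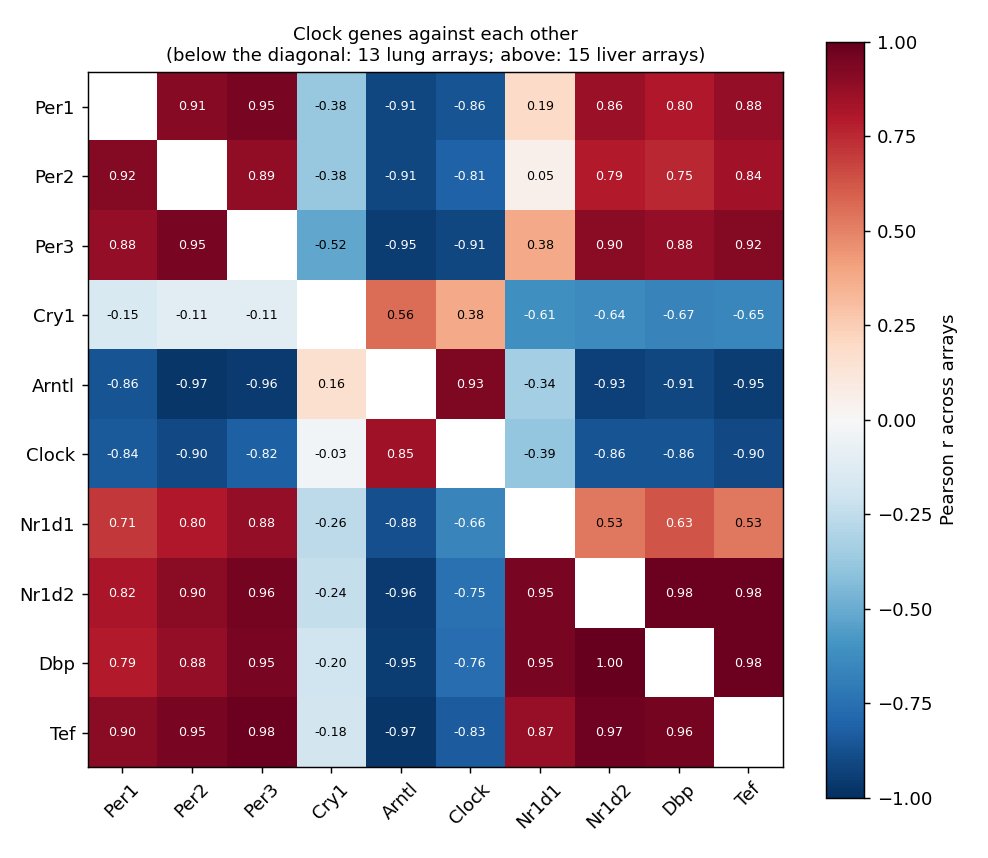
Pearson r between each pair of clock genes across arrays centred on the exposure group, 13 lung arrays below the diagonal and 15 liver arrays above it, on a colour scale from -1 (blue) to 1 (red). Arntl and Clock are red with each other and blue with the Per, Nr1d, Dbp and Tef genes (Arntl with Dbp -0.95 in the lung and -0.91 in the liver), and Cry1 is pale in the lung.

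The tissues themselves differed in the level of some clock genes, at a share under or near that of all probes. Tissue cannot be told apart from its own slides, labelling and scan. Between control lung and control liver 2 of 10 genes were called (59.7% of all probes), Clock as higher in the lung by 0.58 (SE 0.14, limma adjusted p = 0.000566) and Cry1 as lower, at -0.2 (SE 0.09, limma adjusted p = 0.0456). Comparing tissues within the mouse removes the spread between mice, and with the mouse as a block 6 of 10 were called (55.8% of all probes). Per1 was higher in the lung by 0.76 (SE 0.09, limma adjusted p = 3.62e-06) and in 6 of 6 control mice. Clock was higher by 0.44 (SE 0.06, limma adjusted p = 8.6e-06) and Tef by 0.54 (SE 0.12, limma adjusted p = 0.0013), each in 6 of 6 control mice. Arntl was lower in the lung, at -0.69 (SE 0.09, limma adjusted p = 1.37e-05) and in all 6 control mice.

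Nr1d2 was slightly lower in the lung, at -0.18 (SE 0.07, limma adjusted p = 0.044). Dbp was higher by 0.85 (SE 0.24, limma adjusted p = 0.0189), but this rests on control mice 24 and 32. No other control mouse had unmarked Dbp spots in both tissues. With the marked spots put back Dbp was higher by 0.52 (limma adjusted p = 0.00661), with 5 of 6 control mice positive. Cry1 was not called within the mouse (-0.21, SE 0.09, limma adjusted p = 0.0532), and it lost its call in 16 of the 28 fits that left out 1 array. Within the mouse the exposure effect differed between tissues for 0 of 10 genes (0.119% of all probes), and the lowest p was that of Arntl at 0.57 (SE 0.13, limma adjusted p = 0.296).

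Of the 10 genes, 5 had several probes, and these mostly gave the same order. The 3 further Tef probes had r between 0.85 and 0.96 with the brightest one, which is reported here, and the 3 further Clock probes between 0.63 and 0.94. The second Per2 probe had r = 0.91 in the lung and 0.55 in the liver. Another Nr1d1 probe had r = 0.2 in the lung and 0.68 in the liver, and the second Cry1 probe was well above background on 0 of 28 arrays. Between exposed and control lungs the second Per2 probe differed by 0.03 and the further Nr1d1 probes by 0.07 and 0.05. The further Tef probes differed by -0.09, 0.04 and -0.01, and none of these was called. The difference between control lung and control liver, without a block, depended on the probe. The further Tef probes gave -0.12, 0.19 and -0.04, none called. The second Per2 probe gave -0.72 (limma adjusted p = 6.69e-07) and the further Nr1d1 probes -0.37 and -0.39, all called. The further Clock probes gave 0.3 to 0.35, all called and of the reported sign.

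A list of 28 further clock and clock output genes gave the background of the pathway. In the lung 0 of 28 were called between exposed and control mice (median 0.04), in the liver 0 of 28 (median 0), and for the difference between tissues 0 of 28. In the lung the 3 with the largest difference were Bhlhe40, a repressor of CLOCK and BMAL1, at 0.29 (limma adjusted p = 0.755), Ciart, a repressor of the same pair, at 0.25 (0.827) and Hlf, a PAR bZIP factor like Dbp and Tef, at 0.19 (0.928). In the liver they were Usp2, a deubiquitinase, at 0.29, Id2 at -0.24 and Cry2 at 0.15, each with an adjusted p of 1. The median r between lung and liver of the same mouse was 0.44 over the 28, and 12 of them exceeded 0.5, led by Ciart (0.87), Bhlhe40 (0.83), Usp2 (0.82), Hlf (0.76), Por (0.71) and Nfil3 (0.69). Their SD exceeded 0.5 in 1 of 28 in the lung (Hlf, 0.66) and in 7 of 28 in the liver, among them Usp2 (1.48), Ciart (1.41), Noct (1.29), Alas1 (1.08) and Nfil3 (0.71).

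Of 15676 genes well above background on at least 50% of the arrays of each tissue, those most like Dbp over the 28 arrays, after centering on tissue and exposure, were Nr1d2 (r = 0.97), Tef (0.97), Per3 (0.9), Cry2 (0.84) and Tenc1 (0.83). The least like were Arntl (-0.93), Lonrf3 (-0.92), Nfil3 (-0.87), Mical2 (-0.85) and Leo1 (-0.84). Nfil3 encodes the factor that competes with Dbp and Tef for D-boxes. Per2 stood at rank 21 (0.81), Per1 at rank 24 (0.8) and Nr1d1 at rank 40 (0.76) from the top, and Clock among the lowest (-0.83).

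Other measures of the arrays were set beside the Dbp level. Of 18 relations with the mean level of a cell type's markers or with array quality, 0 had an adjusted permutation p under 0.05. The strongest was the 6 markers of lung epithelium and endothelium in the lung (r = -0.77, rho -0.8, permutation p = 0.00761, adjusted p = 0.137, and r = -0.52 without the 2 farthest arrays). The markers' own mean level spanned 4.39 to 4.82 over the lungs, 6 of 6 were well above background on every lung, and their part in the clock levels was not tested. For the percentage of spots well above background, r was 0.35 (rho 0.53) with Dbp in the lung and 0.09 (rho -0.07) in the liver. For the percentage of marked spots, r was 0.15 (rho 0.34) with Dbp in the lung and -0.35 (rho -0.5) in the liver. The 6 neutrophil markers averaged 2.69 in 1 control liver and at most 0.64 in exposed livers. A list of 8 measured glucocorticoid-responsive genes was called in 0 of 8 in the lung (median 0.18) and 0 of 8 in the liver (median -0.09). Of the 8, 3 had r over 0.5 between the tissues of a mouse (9.75% of all probes), Cdkn1a (0.82), Dusp1 (0.72) and Tat (0.71). The others lay between -0.11 and 0.16, and the median r over the 8 was 0.13 against 0.05 over all probes.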

How the data were processed

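Lung mRNA was read on 13 arrays and liver mRNA on 15. For each array the authors deposited scanner files that give every spot's intensity and local background (version 9.5.3.1 for lung, 10.1.1.1 for liver) and LOWESS-normalized values in log2 units, used as an alternative. An array held 45018 spots, 43379 of them not controls. With R 4.3.3, limma 3.58.1, statmod 1.5.0 and version 1.17.8 of data.table, median intensities were corrected by normexp (offset 50) and normalized by loess within the array (span 0.3), and spots of a probe were averaged. Figures used matplotlib 3.10.9. Direction is Cy5 sample over Cy3 reference. The methods' MAANOVA was replaced by lmFit and eBayes with Benjamini-Hochberg adjustment over all probes (threshold 0.05). Outlier spots, as marked during scanning, did not enter group comparisons. They were put back for levels, exact tests, correlations, SD and slide terms, a choice made after seeing that 16 of 280 values of the clock genes were marked, 10 of them Dbp. No value was saturated (0 of 280). Correlations used 100000 permutations, with 0.00001 as the smallest p they can give, or all 720 orders within 6 mice.

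All 10 genes were named, each by its brightest probe, and of the further clock genes any called one and the 3 with the largest difference per tissue. Genes singled out beside these were chosen after their values were seen. Members and lists were chosen with earlier results of these data known. Lung and liver arrays with the same mouse number come from the same animal, which is the pairing used. Slides were taken from the labels. The labels' array numbers differ from the scanned barcodes for part of the liver arrays, but both sort the 15 arrays into the same 4 sets. Tests were checked on simulated data. Zbtb16, Alb and Serpina1a of the lists were not measured here. The number of arrays limits the precision.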

Additional observations from a re-analysis of the deposited data

Results flagged for a closer look

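In 6 of 40 groups of a clock gene, 1 mouse stood apart from the rest of its group by Dixon's ratio of the gap to the range, a test at which chance picks out about 1 in 20 groups. In exposed livers mouse 1 was highest in Cry1 (0.45, nearest -0.08, ratio 0.61) and lowest in Nr1d2 (0.31, nearest 1.37, ratio 0.649), Dbp (-2.14, nearest 1.01, ratio 0.721) and Tef (-0.9, nearest 0.79, ratio 0.604). In exposed lungs mouse 1 was lowest in Nr1d1 (0.31, nearest 1.29, ratio 0.599). In control livers mouse 26 was highest in Cry1 (0.06, nearest -0.22, ratio 0.688). These are not independent, since 5 of the 6 are the same mouse and the genes move together.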

How the results depend on the processing

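No clock gene was called between exposed and control mice under 22 alternatives in the lung and 24 in the liver, nor for the difference between tissues under 37, each set including every array left out in turn. Single differences changed sign in 23 of 352, 45 of 384 and 89 of 592 alternative values, without a call. Over all probes the lung count of 83 became 13 with marked spots kept in the background model, 4 under median centering, and 132 when slide was a random block, and the count of 58 for the difference between tissues became 6, 12 and, with the processed signals of the scanner software, 34.

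The mouse as a replicate block rests on lung and liver of the same animal. With it, 0 clock genes were called for the difference between tissues, as without it, and 6 in place of 2 between control lung and control liver. Without the block, the count of 2 became 1 with marked spots kept in the background model (51% of all probes) and 1 with median centering (51.1%). It ranged from 1 to 2 with an array left out. Under the scanner software's processed signals the median of all probes moved to -0.11 in this comparison. The slide term was called for 7 genes in the lung, 0 with marked spots kept in the background model and 6 to 8 with an array left out, and for 8 to 9 in the liver. The pairs called fell from 36 to 23 in the lung and from 34 to 19 in the liver with slide as a further term. The exact test of a single gene by exposure gave 0 genes under 0.05, and 1 with marked spots kept in the background model.

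Lung and liver of the same mouse gave 9 genes after adjustment over the 10 relations, 8 to 9 with a mouse left out, 8 with marked spots kept in the background model, 6 with median centering (Clock at r = 0.11, adjusted p = 0.837, and Nr1d1 at 0.64 lost their call) and 0 after adjustment over all probes, a test added after seeing the data, as were the settings with marked spots put back or left out, the mice below the Per2 gap and the slide term. With marked spots left out, Dbp had both tissues in 5 mice only and gave no r. The cause of these changes was not tested.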
